A study of Homo sapiens with 27 samples.

Results

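Processed pseudogene transcripts were counted in RM82 cells, an Ewing sarcoma line, after 24 h with SGC-CLK-1, an inhibitor of CDC-like kinases that phosphorylate splicing factors, or with the solvent dimethylsulfoxide (DMSO). Of the 93530 transcript identifiers listed in the 6 libraries, 2438 were annotated as processed pseudogenes or transcribed processed pseudogenes, and the 573 with a summed count of 6 or more were kept as members. The members were thus chosen by their annotation and selected on the count over both groups together, and the counts themselves are not a finding. Long-read nanopore libraries tagged with unique molecular identifiers (UMIs) were available for 3 replicates labelled SGC-CLK-1 and 3 labelled DMSO, and every value is a count of UMIs assigned to a transcript. The total count was 666702, 362826 and 373004 in the SGC-CLK-1 libraries and 416352, 523456 and 372876 in the DMSO libraries. Nothing in the labels says that the replicates were separate cultures. The paper states in general that its experiments were repeated independently at least 3 times unless a legend says otherwise. Its legend for these cells speaks only of replicates. The p-values therefore measure the spread between these libraries, which may be technical.

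The threshold fell in a dense part of the count distribution, with 76 members at exactly 6 counts and a further 117 transcripts left out at 5 counts. Markers of the cell line were checked first. CD99, a surface protein of Ewing sarcoma, had 335 counts over the 6 libraries, STEAP1 had 221 and EWSR1 had 554, whereas NKX2-2 and FLI1 had none. Leukocyte markers were low, with 42 counts of PTPRC and none of CD3E. The 4 plasma cell markers SDC1, TNFRSF17, IGLL5 and IGHG1 were all at 0, which allows up to 3 counts each.

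A processed pseudogene arises when an mRNA is copied into DNA by the reverse transcriptase of a mobile element and inserted elsewhere in the genome, so it lacks the introns and promoter of its parent gene. Abundant mRNAs, such as those for ribosomal proteins, left many such copies. Because a young copy is almost identical to its parent, a read from the parent mRNA can be assigned to the copy, and a count on a pseudogene transcript does not by itself show that the pseudogene was transcribed.

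The sequences below show how much separates a copy from its coding gene. Each pair is a 60-base window within the coding sequence in which the ungapped alignment held the most differences, with differing bases in capitals. The windows belong to members on which the comparisons turn, and the coordinates are those of the copy in GRCh38. RPL6P27 (chr18:6462740-6462799, minus strand) and RPL6 differed at 2 of the 60 bases, as did RPL23AP42 (chr3:161429221-161429280, minus strand) and RPL23A. HSP90AA2P (chr11:27889120-27889179, minus strand) and HSP90AA1 differed at 5, and MTND4LP30 (chr5:134928108-134928167, minus strand) and the mitochondrial gene MT-ND4L differed at 7. RPL35AP16 (chr5:146138281-146138340, plus strand) and RPL35A differed at 9, and ENSG00000243303 (chr18:21854732-21854791, minus strand) and RPL34 differed at 17.
RPL6P27: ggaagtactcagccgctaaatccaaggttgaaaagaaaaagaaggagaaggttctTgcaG
RPL6: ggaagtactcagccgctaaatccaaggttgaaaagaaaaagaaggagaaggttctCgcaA
RPL23AP42: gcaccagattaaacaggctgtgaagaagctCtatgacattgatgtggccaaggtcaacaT
RPL23A: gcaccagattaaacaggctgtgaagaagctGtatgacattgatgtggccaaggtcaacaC
HSP90AA2P: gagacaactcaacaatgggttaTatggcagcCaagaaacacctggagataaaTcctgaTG
HSP90AA1: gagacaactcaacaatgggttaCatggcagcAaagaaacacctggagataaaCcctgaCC
MTND4LP30: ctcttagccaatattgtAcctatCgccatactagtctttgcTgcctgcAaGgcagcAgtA
MT-ND4L: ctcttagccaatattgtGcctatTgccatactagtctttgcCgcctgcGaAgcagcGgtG
RPL35AP16: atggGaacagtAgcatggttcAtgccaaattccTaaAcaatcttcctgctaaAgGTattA
RPL35A: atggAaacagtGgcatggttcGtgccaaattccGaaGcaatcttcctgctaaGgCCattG
ENSG00000243303: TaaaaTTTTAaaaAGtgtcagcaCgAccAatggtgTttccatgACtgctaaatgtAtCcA
RPL34: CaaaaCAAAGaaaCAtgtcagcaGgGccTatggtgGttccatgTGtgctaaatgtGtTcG

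The 573 members held 14514 counts and took about the same share of each library. In the SGC-CLK-1 libraries they made up 0.559%, 0.518% and 0.527% of all counts, and in the DMSO libraries 0.539%, 0.546% and 0.495%. The group values were 0.534% ± 0.0217 and 0.527% ± 0.0273 (SD, n = 3 each), so the groups overlapped and their difference was smaller than the SD of either. Counts were concentrated in few transcripts. The median member had 11 counts, 245 had fewer than 10, 83 had 30 or more and 18 had 100 or more. The 10 largest held 31.8% of the counts and the 2 largest 14.4%, and 215 members were counted in every library.

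Most members had the form of a retrocopy. A single exon was annotated for 473 of them, and the median length was 706 bases, with a range of 108 to 9714. The position of a copy decides which other reads can fall on it: 164 overlapped no other gene, 239 lay only opposite to one, 150 lay in an intron on the same strand and 20 overlapped an exon on the same strand. A parent could be read from the symbol for 331 members, which named 215 parents, and 242 members had no named parent.

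Ribosomal protein genes were the most frequent parents. Of the members with a named parent, 100 were copies of 36 ribosomal protein genes and held 2269 counts. RPL21 had 19 copies among the members, and RPL23A and RPL7 had 7 each. By sequence, 138 members matched a ribosomal protein gene over 80% or more of their length, of which 43 had no parent in their symbol.

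Alignment to the most counted transcript of the named parent was possible for 326 members, with a median identity of 91.5%, quartiles of 84.5% and 95.7% and a range of 65.0% to 100%. No such alignment was obtained for the 5 members named for KRT8, which stay in the cytoskeleton list. For 278 of the 326 the alignment covered 80% or more of the member. Identity was 98% or more for 42 members and 100% for 4, namely RPL21P16, BZW1P2, BTF3L4P2 and LSM12P1, which are named here for their identity. Those 4 had 13, 9, 7 and 6 counts, beside a median of 11 for all members. Of the 331 members with a named parent, the closest match outside pseudogenes was that parent for 307 and another gene for 24. Of all 573 members, 7 had no match.

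Members were counted far less often than their parents. The median count was 1.71% of the count of the parent gene, among the 327 members whose parent had any count. By identity class, the median was 1.24% at 98% identity or more, 1.21% from 95% to 98%, 1.58% from 90% to 95%, 1.63% from 80% to 90% and 2.24% below 80%. The median ratio was thus not highest among the members most like their parent. The median count itself was 13.5, 13, 9, 9 and 10.5 in the same order of classes. Every member had 6 or more counts by the rule, which sets a lower bound on the ratio where the parent count is small. Whether reads of a parent were assigned to its copies was not tested. These ratios are a description over transcripts of the same libraries, without a test. Only 6 members were counted more often than the parent (TMEM256P2, GRAMD4P3, KRT18P12, ZMYND19P1, KRT18P5 and LAGE3P1), and 4 had a parent with no count (ADAD1P1, CLDN7P1, ARHGAP42P4 and ARHGAP42P5). These 10 were singled out after their values were seen.

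**Figure D1:**
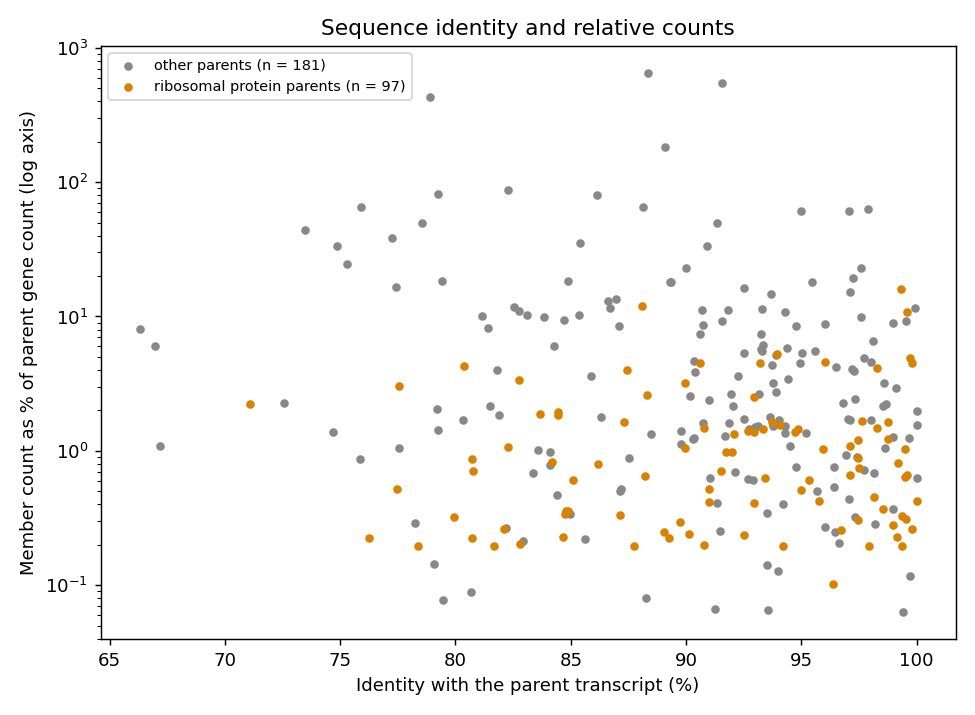
Each point is one of 278 members aligned over 80% or more of its length. The x axis is the identity with the parent transcript in percent and the y axis, on a log scale, is the member's summed count as a percent of the parent gene's. Copies of ribosomal protein genes (n = 97) are orange. The class of 98% identity or more had a median of 1.24% and a range of 0.0629% to 16.1%, and every class of lower identity reached higher values.

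The transcript with the most counts was HNRNPA1P54, named for HNRNPA1, an RNA-binding protein that acts in splicing. It was counted 264, 169 and 191 times in the SGC-CLK-1 libraries and 196, 232 and 124 times in the DMSO libraries. In CPM, the usual count relative to library size, here after TMM scaling, this was 450 ± 57.7 against 422 ± 70.9 (SD, n = 3 each), and the groups overlapped. The annotated transcript spans 9714 bases, of which only 14.6% aligned to HNRNPA1, and where on it the reads fell is not known from the counts.

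ADAD1P1, named for a testis gene of the adenosine deaminase family, followed with 920 counts (212, 113 and 120 against 162, 210 and 103). ADAD1 itself had no count in any library, which allows up to 3 counts. The closest match of ADAD1P1 was a stretch of 16.1% of its length that 360 genes shared. Of the other large members without a named coding parent, ENSG00000225840 had 560 counts, ENSG00000228681 had 385, ENSG00000288579 had 249 and ENSG00000287977 had 239. The last pair matched TIGD1, a gene derived from a DNA transposon, as did 7 members in all.

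None of these large members was called between the groups by edgeR (quasi-likelihood test, p-values adjusted by Benjamini-Hochberg over all transcripts tested, threshold 0.05). ENSG00000228681 came closest, with 168 ± 48.7 CPM against 109 ± 43.3 (SD, n = 3 each), a log2 fold change of 0.65 ± 0.27 (SE) and an adjusted p of 0.19. Its groups overlapped, and DMSO replicate 3 was the lowest library at 60.5 CPM.

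Divided by annotated length, the counts put the members in a different order. A UMI counts a molecule once whatever its length, so this order is not a corrected level. ENSG00000249072, a 177-base copy of the large mitochondrial ribosomal RNA gene MT-RNR2, had the highest value at 1508 counts per kb. MT-RNR2 itself had no entry among the counted transcripts, so its level could not be set beside that of the copy. Whether reads of MT-RNR2 were assigned to the copy was not tested. MTND4LP30 followed at 492, ADAD1P1 at 475, ENSG00000228681 at 467 and RPL6P27 at 446 counts per kb, while HNRNPA1P54 had 121.

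Testing was limited by depth. A filter on low counts left 7840 transcripts, of which 310 were called at an adjusted p under 0.05 (3.95%), 165 of them lower in the SGC-CLK-1 libraries (2.1%). That count depended on single libraries. It was 81 of 9406 without SGC-CLK-1 replicate 2 and 363 of 8530 without DMSO replicate 2, the lowest and highest of the leave-one-out fits. Only 28 members passed the filter and 545 did not. Of the 28, 3 were called, all lower: ENSG00000213590, RPL35AP16 and MTND4LP30. An unadjusted p under 0.05 was reached by 8 of the 28 members and by 18% of all transcripts tested. The CPM of the groups did not overlap for 10 of the 28, 9 of them lower, and for 23.4% of all transcripts tested. DESeq2 called 1 member, ENSG00000213590, and 1.25% of all transcripts. The filter keeps a low transcript that is high in one group, so these counts over tested members are not rates for all 573. In a fit of all transcripts with a summed count of 6 or more, which tested every member, 7 of 573 were called where 0.823% of all transcripts were, 4 of them lower and 3 higher. Of the 3 higher, RPL23AP42 and RPL23AP74 had 72% and 83.3% of their counts in SGC-CLK-1 replicate 1. Over all 573 members in that fit the median log2 fold change was 0.01, against 0.03 for all transcripts.

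ENSG00000213590 had the largest fall among the 28 tested members. The transcript (ENST00000395082, chr9:136935840-136937161, plus strand, 1322 bases) overlapped no other gene. It was counted 13, 4 and 6 times in the SGC-CLK-1 libraries and 33, 50 and 25 times in the DMSO libraries. Every DMSO library was above every SGC-CLK-1 library. At 15.3 ± 4.3 CPM against 82.0 ± 14.6 (SD, n = 3 each), the log2 fold change was -2.30 ± 0.33 (SE) with an adjusted p of 9.7e-05 in edgeR's quasi-likelihood test. No parent could be assigned, since the only match outside pseudogenes covered 23% of the transcript, lay on the opposite strand and was shared by 350 genes.

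RPL35AP16, a copy of the gene for a protein of the large ribosomal subunit, also fell. The transcript (ENST00000477363, chr5:146137755-146138381, plus strand) has 2 exons and 321 bases, and lies opposite to LARS1, which encodes a leucyl-tRNA synthetase. It was counted 9, 4 and 3 times against 11, 25 and 16 times. The groups did not overlap, at 10.7 ± 2.69 CPM against 39.8 ± 11.7 (SD, n = 3 each). The log2 fold change was -1.77 ± 0.42 (SE), adjusted p = 0.016 by edgeR's quasi-likelihood test. The adjusted p was 0.073 without SGC-CLK-1 replicate 2, 0.078 without SGC-CLK-1 replicate 3 and 0.086 with DESeq2, and without DMSO replicate 2 the transcript was not tested.

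The third called member, MTND4LP30 (ENST00000454092, chr5:134928030-134928326, minus strand, 297 bases), is a nuclear copy of MT-ND4L, which encodes a subunit of respiratory complex I. It was counted 27, 12 and 10 times against 27, 40 and 30 times. In CPM the groups did not overlap, at 32.9 ± 6.77 against 75.3 ± 9.08 (SD, n = 3 each). The log2 fold change was -1.09 ± 0.29 (SE) with an adjusted p of 0.029 in edgeR's quasi-likelihood test. The call was lost in each leave-one-out fit except that without SGC-CLK-1 replicate 1, with edgeR adjusted p-values of 0.052 to 0.14 in those 5, and DESeq2 gave 0.14.

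**Figure D2:**
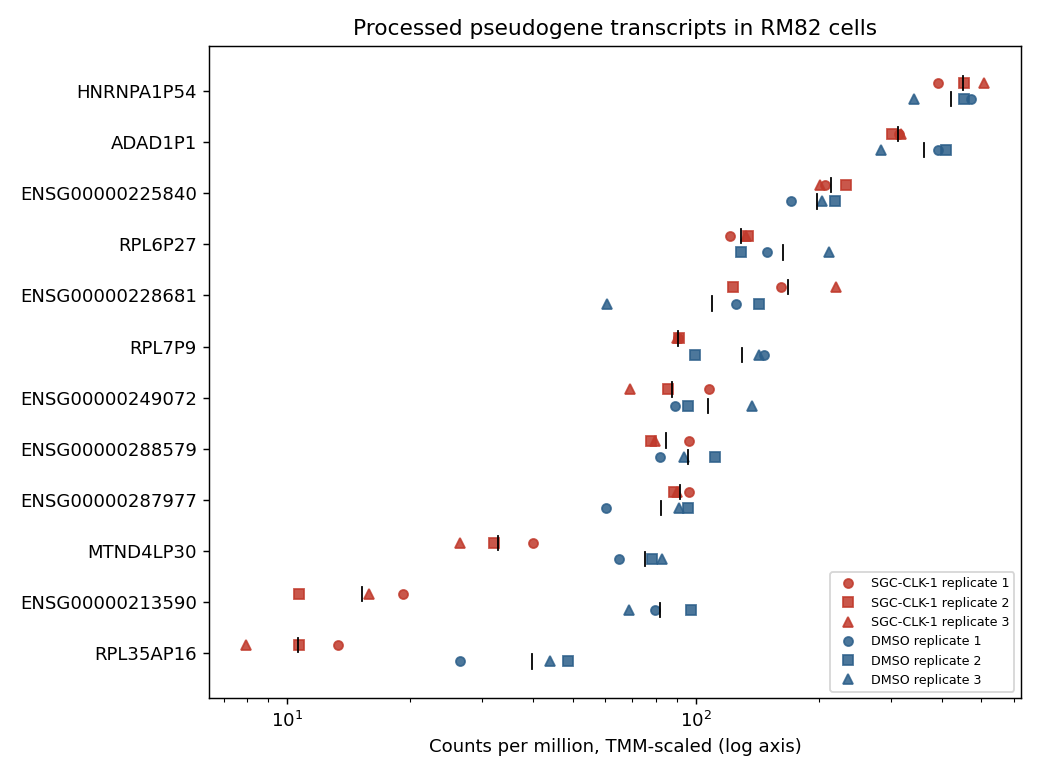
TMM-scaled counts relative to library size (CPM) on a log axis for the 10 members with the most counts and the other 2 with an adjusted p under 0.05. Red marks are SGC-CLK-1 libraries, blue marks DMSO libraries, marker shape gives the replicate and the black ticks are group means. Only RPL7P9 and the 3 lowest rows, MTND4LP30, ENSG00000213590 and RPL35AP16, had groups that did not overlap.

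Whether a copy followed its parent was asked by testing its change against that of the parent gene's transcripts (diffSpliceDGE in edgeR, adjusted over all transcripts so tested). Of all 5538 transcripts tested in this way, 6 were called (0.108%) and 1.43% had an unadjusted p under 0.05. Of the members with a named parent, 10 could be tested and none was called, with 1 at an unadjusted p under 0.05. With the parent taken from the sequence, 18 members were tested, none was called and 3 had an unadjusted p under 0.05. Of the 215 named parents, 187 were tested as genes and none was called by edgeR, with 29 at an unadjusted p under 0.05, where 0.236% and 13.9% of all 6344 genes were. The median log2 fold change was -0.16 for the parents and 0.00 for all genes.

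Of the 10 copies tested against a named parent, RPL6P27 and RPL7P9 had the smallest differences from it. RPL7P9, 99.7% identical to RPL7, was counted 61, 34 and 34 times against 61, 51 and 52 times. In CPM it was 90.5 ± 0.557 against 130 ± 26.3 (SD, n = 3 each), and the groups did not overlap. Its log2 fold change was -0.45 ± 0.24 (SE) beside -0.46 ± 0.19 for RPL7, and the test against the parent gave -0.08 with an unadjusted p of 0.77 in edgeR's diffSpliceDGE. Neither RPL7P9 (adjusted p = 0.32) nor RPL7 (0.29) was called by edgeR.

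RPL6P27, 99.3% identical to RPL6, was counted 82, 50 and 50 times against 62, 66 and 77 times. Its groups overlapped, with DMSO replicate 3 the highest at 212 CPM. The log2 fold change was -0.27 beside -0.28 for RPL6, and -0.02 against the parent (edgeR, unadjusted p = 0.94).

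HSP90AA2P, a copy of the chaperone gene HSP90AA1 with 97.1% identity, is outside the rule for named members and was chosen after its values were seen. It was counted 18, 7 and 19 times against 27, 31 and 23 times, and in CPM the groups did not overlap. The log2 fold change was -0.95 ± 0.32 (SE), edgeR adjusted p = 0.095. HSP90AA1 was the one matching gene called, at -1.11 ± 0.18 (SE), edgeR adjusted p = 0.033. The copy against the gene gave 0.07 (edgeR, unadjusted p = 0.85).

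One copy each of RPL35A and RPL34 had a fold change far from that of the coding gene, but neither difference passed the adjustment. RPL35A was counted 395, 249 and 287 times against 212, 246 and 302 times, with overlapping groups, a log2 fold change of 0.11 ± 0.23 (SE) and an edgeR adjusted p of 0.88. RPL35AP16 against RPL35A gave -1.94, with an unadjusted p of 0.00026 and an adjusted p of 0.21 (edgeR). Without DMSO replicate 3 the adjusted p was 0.008 (edgeR), with a difference of -2.17. Identity between them was 87.4%, lower than the member median. The other RPL35A copies, RPL35AP17, RPL35AP36 and RPL35AP2, had 25, 7 and 6 counts, and their log2 fold changes without the filter were -0.97, -2.36 and 0.74, none of them called by edgeR.

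ENSG00000243303, 83.2% identical to RPL34 and opposite to MIB1, was chosen after its values were seen. It was counted 20, 7 and 20 times against 30, 45 and 20 times. The groups did not overlap in CPM, although SGC-CLK-1 replicate 3 (53.0) and DMSO replicate 3 (55.0) were close. The log2 fold change was -1.07 ± 0.32 (SE), edgeR adjusted p = 0.054, beside 0.45 ± 0.26 for RPL34. It was called without SGC-CLK-1 replicate 3 (edgeR adjusted p = 0.036) and without DMSO replicate 3 (0.029). In the other leave-one-out fits it was not called, at -0.81 to -1.06 with edgeR adjusted p-values of 0.14 to 0.29. Against RPL34 it was -1.38, with an unadjusted p of 0.00034 and an adjusted p of 0.24 (edgeR). RPL34P6, the copy named for RPL34, had 41 counts and, without the filter, a log2 fold change of 0.33 and a difference of -0.14 from RPL34 (edgeR, unadjusted p = 0.79).

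None of the other copies with a named parent was called against it (PABPC1P1 and HMGB1P5 are given with their lists). The log2 fold change was 0.14 for HNRNPA1P54 beside -0.19 for HNRNPA1, 0.27 for PSMC1P1 beside -0.34 for PSMC1 and 0.12 for EIF2S2P4 beside -0.19 for EIF2S2. It was -0.49 for ANKRD36BP1 beside 0.24 for ANKRD36B, -0.03 for CTDSPL2P1 beside 0.55 for CTDSPL2 and -0.16 for PHB1P19 beside -0.36 for PHB1. The difference from the parent was largest among these for ANKRD36BP1, at -0.77 (edgeR, unadjusted p = 0.064), and was not tested for CTDSPL2P1. By sequence, ANKRD36BP1 was closest to ANKRD36, and its difference from that gene was -0.82 (edgeR, unadjusted p = 0.023, not called after adjustment). It is the third of the 3 members under 0.05 by sequence, beside RPL35AP16 and ENSG00000243303. The value of PSMC1P1 rests on SGC-CLK-1 replicate 1, at 54.8 CPM, since the other SGC-CLK-1 libraries had 32.2 and 18.6 CPM against 21.7, 33.2 and 44.03 in the DMSO libraries. EIF2S2P4, ANKRD36BP1, CTDSPL2P1 and PHB1P19 are outside the rule for named members and complete the tested pairs.

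**Figure D3:**
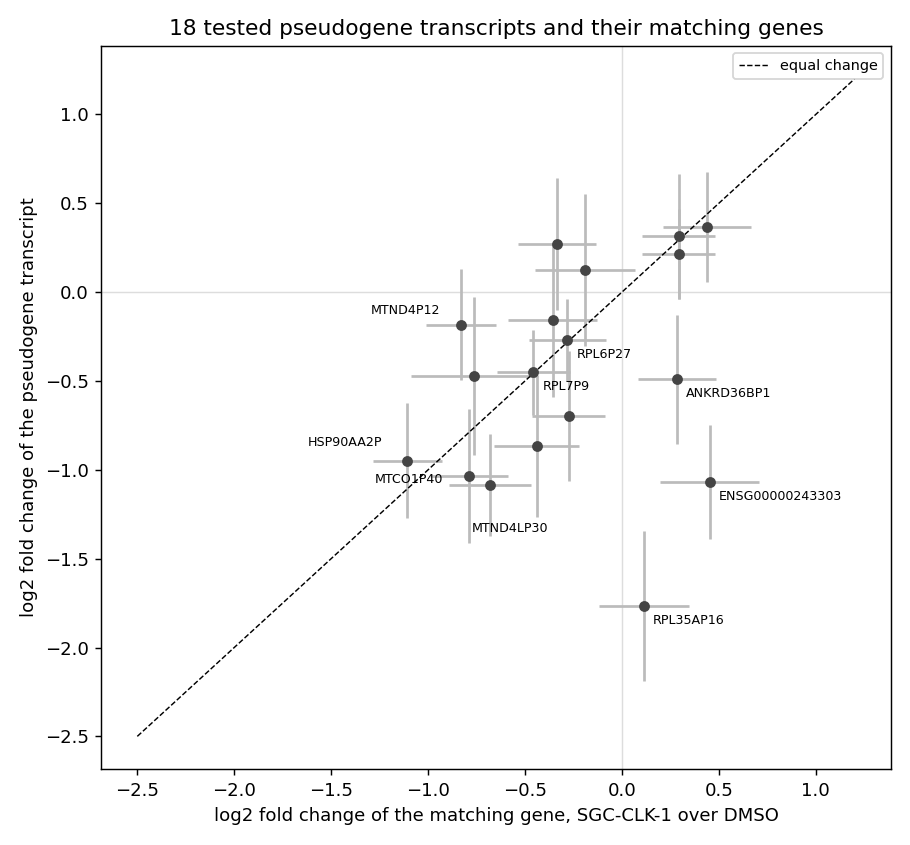
Log2 fold change (SGC-CLK-1 over DMSO) of 18 tested members, y axis, and of the coding gene that matches each over 80% or more of its length, x axis. Bars are standard errors and the dashed line marks equal change. RPL7P9 and RPL6P27 lie on the line, while RPL35AP16 (-1.77 beside 0.11) and ENSG00000243303 (-1.07 beside 0.45) lie below it.

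Copies of the mitochondrial genome formed a group of their own, although the annotation counts them among processed pseudogenes. Apart from MTND4LP30 and ENSG00000249072, those named here were chosen after their values were seen. By sequence, 14 members with 835 counts matched a mitochondrial gene over 80% or more of their length. On chromosome 5, MTCYBP18, MTND6P4, MTND5P11, MTND4P12 and MTND4LP30 lie next to each other between positions 134923303 and 134928326, in the order of the mitochondrial genes, and as neighbours on a single stretch they are not independent members. They had 6, 47, 51, 113 and 146 counts. In the fit without the filter, the log2 fold changes were -1.16 for MTND4LP30, -0.94 for MTND5P11, -0.73 for MTND6P4, -0.26 for MTND4P12 and -0.15 for MTCYBP18, and only MTND4LP30 was called by edgeR. These members were not tested against each other.

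The matching genes MT-ND4L, MT-ND4 and MT-CO1 were also lower in value in the SGC-CLK-1 libraries without being called. MT-ND4L was counted 355, 153 and 173 times against 380, 380 and 200 times, a log2 fold change of -0.68 ± 0.21 (SE) with an edgeR adjusted p of 0.15. MT-ND4 had -0.83 (edgeR adjusted p = 0.054) and MT-CO1, a subunit of cytochrome c oxidase, -0.79 (0.097). MTND4LP30 against MT-ND4L gave -0.44 with an unadjusted p of 0.16, and MTND4P12 against MT-ND4 gave 0.55 with an unadjusted p of 0.10 (edgeR). MTCO1P40 on chromosome 17, 96.0% identical to MT-CO1, had 24, 5 and 4 counts against 24, 24 and 14, a log2 fold change of -1.04 and an edgeR adjusted p of 0.13. Without SGC-CLK-1 replicate 1 it was called, at -1.90 (edgeR adjusted p = 0.029). In the other leave-one-out fits it was not called, at -0.75 to -1.17 with edgeR adjusted p-values of 0.10 to 0.39.

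Copies of RPL23A stood apart in a single library. RPL23AP42 and RPL23AP74 were chosen after their values were seen. RPL23AP42 was counted 90, 6 and 6 times against 7, 3 and 13 times, so that SGC-CLK-1 replicate 1 held 90 of its 125 counts. RPL23AP74, in an intron of BCAS3, was counted 40, 1 and 1 times against 1, 1 and 4 times. That library held 24.6% of all counts. Without it, RPL23AP42 was at 16.1 and 15.9 CPM in the SGC-CLK-1 libraries, inside the DMSO range of 5.86 to 35.8. RPL23AP42 did not pass the filter with all libraries, but was called higher by edgeR without SGC-CLK-1 replicate 2 and without SGC-CLK-1 replicate 3. In the fit without the filter, RPL23AP42 and RPL23AP74 were called higher (edgeR adjusted p = 0.00059 and 0.0057).

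RPL23A itself was also highest in SGC-CLK-1 replicate 1, at 691 CPM (here scaled by the library total alone), with 212 to 432 in the other 5 libraries. All 7 copies summed made 247 CPM there and 19.1 to 77.8 in the others. Of the 145 members with 20 or more counts, 4 had more than 50% of them in 1 library.

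**Figure D4:**
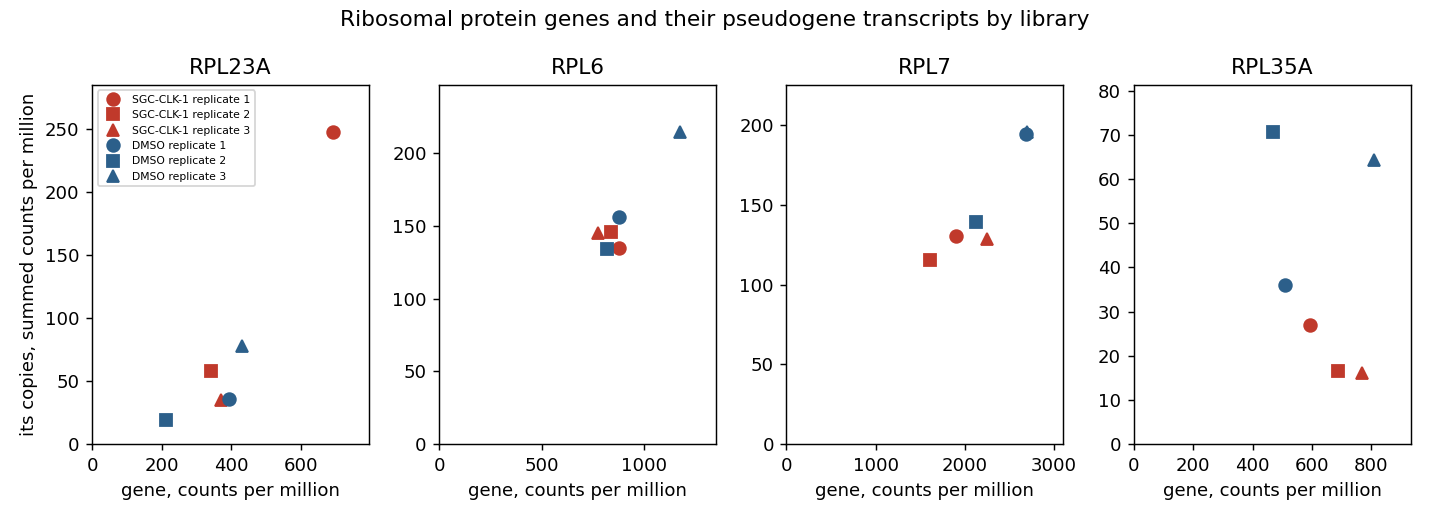
Summed counts of the pseudogene transcripts of 4 ribosomal protein genes (y axis) and counts of the gene (x axis), both in CPM scaled by the library total, with 1 mark per library. Axes start at 0 and differ between panels. SGC-CLK-1 replicate 1 is alone at 691 and 247 for RPL23A, and the copies of RPL35A are higher in the 3 DMSO libraries than in the 3 SGC-CLK-1 libraries.

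Within each larger list of parents, the values of the copies went in both directions. Among the 100 copies of ribosomal protein genes, 50 had a higher and 50 a lower mean CPM in the SGC-CLK-1 libraries, 3 were tested and 1, RPL35AP16, was called. Of all 573 members, 305 had a higher and 268 a lower mean. The 17 copies of translation factor genes divided into 12 higher and 5 lower, the 17 of RNA binding and splicing genes into 10 and 7, the 15 of cytoskeleton genes into 11 and 4, the 14 of chaperone genes into 6 and 8 and the 12 of chromatin genes into 4 and 8. Only 4 members of these 5 lists passed the filter, none of them a cytoskeleton or chaperone copy, and none of the 4 was called by edgeR. In the fit without the filter, the cytoskeleton copy KRT8P39 was called (edgeR adjusted p = 0.0466).

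The largest member of each list is described by its own values, which do not stand for the list. PABPC1P1, a copy of the poly(A)-binding protein gene, was counted 18, 8 and 5 times against 15, 19 and 13 times. Its groups did not overlap in CPM, and its log2 fold change was -0.70 (edgeR adjusted p = 0.32) beside -0.28 for PABPC1. HMGB1P5, from a gene for an abundant DNA-binding protein, was counted 13, 6 and 5 times against 11, 15 and 15 times. It had a log2 fold change of -0.87 (edgeR adjusted p = 0.25) beside -0.44 for HMGB1, and its groups did not overlap in CPM either. PSMC1P1, 99.9% identical to the proteasome gene PSMC1, was counted 37, 12 and 7 times against 9, 17 and 16 times, with overlapping groups.

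The remaining lists were represented by transcripts too low to be tested after the filter. PPIAP2, a copy of the cyclophilin A gene in an intron of ABHD12, had 26.0 ± 6.92 CPM against 13.3 ± 5.74 (SD, n = 3 each), and the groups overlapped. KRT8P39, from a keratin gene and lying in an intron of NUP107 on the same strand, had 10, 5 and 8 counts against 1, 2 and 0. All SGC-CLK-1 libraries were above all DMSO libraries, while KRT8 had 27, 9 and 7 counts against 18, 36 and 8. The parent of KRT8P39 was taken from its symbol, and no identity with a coding transcript of KRT8 was obtained. GAPDHP62, which overlaps an exon of ANKRD46, had 45 counts, NDUFV2P1, a copy of a complex I gene, 28, TXNP6, a copy of the thioredoxin gene, 25, and YWHAZP4, the only copy in its list, 9. Groups overlapped for all 4.

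The ratio of copies to parents was compared last. Over all 331 members with a named parent, the summed count was 3.85%, 3.70% and 3.40% of that of the parents in the SGC-CLK-1 libraries and 3.39%, 3.29% and 2.81% in the DMSO libraries. The groups did not overlap, at 3.65% ± 0.231 and 3.17% ± 0.309 (SD, n = 3 each), but the lowest SGC-CLK-1 library and the highest DMSO library were nearly equal. HNRNPA1P54 and ADAD1P1, which match their named parent poorly, held 26.2% of these member counts. Without them, a setting chosen after seeing the data, the ratio was 2.98%, 2.73% and 2.41% against 2.42%, 2.33% and 2.18%, and the groups overlapped. This ratio runs over the members and was given no test. It depends on the parents as well as on the copies, and the tested parents had a median log2 fold change of -0.16. Which side moved was not tested.

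Among the lists, the ratio did not overlap between groups for cytoskeleton genes, at 0.725% ± 0.131 against 0.430% ± 0.0757, and for chaperones and peptidyl-prolyl isomerases, at 1.36% ± 0.0477 against 0.974% ± 0.248 (SD, n = 3 each). By mean CPM in the SGC-CLK-1 libraries, 11 cytoskeleton copies were higher and 4 lower, and 6 chaperone copies were higher and 8 lower. Whether the copies or the parents moved these ratios was not tested. The ratio overlapped for the other lists, including ribosomal proteins at 3.65% ± 0.898 against 3.61% ± 0.387. Without the copies of RPL23A, the ribosomal ratio was 3.19% ± 0.444 against 3.49% ± 0.472, so its direction depended on that 1 family.

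**Figure D5:**
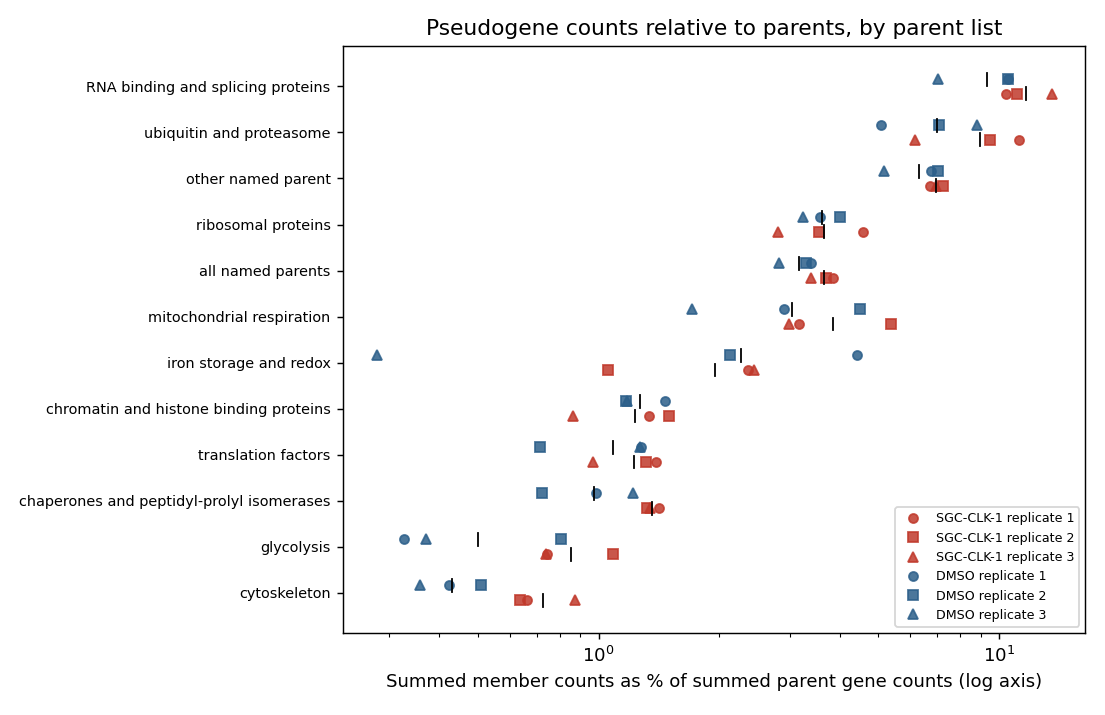
Summed counts of members as a percent of the summed counts of their parent genes, on a log axis, by list of parents with 4 or more members. Red marks are SGC-CLK-1 libraries, blue marks DMSO libraries, marker shape gives the replicate and the black ticks are group means. The groups are separate for all named parents (though not without HNRNPA1P54 and ADAD1P1), cytoskeleton and chaperones, and overlap elsewhere.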

How the data were processed

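The authors called bases with Guppy, oriented reads by their poly(A) tail, mapped them with minimap2 to human transcripts of build hg38, keeping secondary alignments, and deposited deduplicated UMI counts per transcript without normalization, 1 library per file. Which of their deduplication methods made the counts, and how reads with several alignments were counted, is not given in the sources used here. Unlisted transcripts were given 0.

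Identifiers without version were matched to GENCODE 44 (GRCh38, the same build): 86362 of 93530 matched, and the rest held 7.00% of the counts. A parent was the coding gene whose symbol remained after the ending P and digits was removed. Members were aligned with BLAST 2.17.0 to parents (e-value 1e-05) and to all transcripts other than pseudogenes (1e-10). Counts of all transcripts were tested with edgeR 4.0.16 under R 4.3.3, by the quasi-likelihood method after TMM scaling. The filterByExpr settings were a min.count of 10, which is not a floor in every library, and a min.total.count of 15. Calls were made at 0.05 after adjustment by Benjamini-Hochberg. Counts summed to genes were tested likewise, and copies against parents with diffSpliceDGE. The common biological coefficient of variation was 0.169. DESeq2 1.42.0 was an alternative. Replicates of a group differed by more than sampling noise (chi-square per degree of freedom 1.37 to 3.15).

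Named members were the 10 with the most counts, those called, and the largest of each parent list, with others marked as chosen for their values, apart from other copies of a named parent. The members, lists and tests were chosen with earlier results of these data known. On simulated counts for SGC-CLK-1 against DMSO (7235 transcripts, 200 changed 4-fold), edgeR recovered 86% and 4.44% of its calls were wrong, and DESeq2 recovered 77%. For the test against the gene group (5065 transcripts), 71.5% of 130 were recovered. The other libraries of the series were not used here, nor were 4 columns of a PCR table that match no sample label, and 1 of the cell type markers is not reported here.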

Additional observations from a re-analysis of the deposited data

How the results depend on the processing

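The count of called members was 3 under both other scalings (DESeq2 size factors and library size only), with members by gene biotype and with a minimum summed count of 30. It was 7 without the filter, where ENSG00000243303, RPL23AP42, RPL23AP74 and KRT8P39 were added. It was 1 with at least 10 counts in every library (MTND4LP30, the other 2 were not tested), 1 with counts summed to the gene and 1 with DESeq2 (both ENSG00000213590). Over all features, those settings called 173 of 4919 transcripts, 15 of 6344 genes and 98 of 7840 transcripts. Leaving out single libraries gave 1 to 4, the lowest without DMSO replicate 2. Over all transcripts, that same fit had the most calls of the leave-one-out fits, 363 of 8530. The fewest were 81 of 9406, without SGC-CLK-1 replicate 2. RPL23AP42 was gained as a higher call without SGC-CLK-1 replicate 2 or 3. ENSG00000213590 was called in each of these 6 fits. RPL35AP16 was lost without SGC-CLK-1 replicate 2 or 3 and not tested without DMSO replicate 2.

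Same-numbered libraries did not deviate together (correlations 0.059, 0.093 and -0.002), so the number is not taken as a pairing. With the replicate block, 5 members were called, adding ENSG00000243303 and MTCO1P40, and none against the parent. Calls over all 7840 transcripts also rose with the block, from 310 to 427. Not every alternative was run for the test against the parent. Under those that were, 0 members were called except 1 without DMSO replicate 3 (RPL35AP16, -2.17, edgeR adjusted p = 0.008), a range of 0 to 1. With parents taken by sequence, an alternative added after seeing the data, 1 parent gene was called (HSP90AA1).

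The log2 fold changes of ENSG00000288579 (ENST00000673986, -0.22 to 0.026, positive without DMSO replicate 2) and HNRNPA1P54 (ENST00000411857, -0.015 to 0.25, negative without DMSO replicate 3) turned their sign when libraries were left out. The difference in share of counts, 0.008 percentage points, ranged from -0.008 to 0.017 when libraries were left out. It was 0.030 with members by gene biotype, 0.023 with no minimum count and 0.004 over matched transcripts only. The cause of these shifts was not tested. Depth limits the rest: with 545 members below the filter, a change in them was not detectable by the filtered test.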
